A study of Mus musculus with 6 samples.

Results

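The transcription factors that set up and hold the macrophage lineage were followed as 9 genes, Spi1, Elf1, Cebpa, Cebpb, Cebpd, Maf, Mitf, Klf4 and Runx1, chosen by name among the 54532 genes of the deposited table. All 9 were found, each in 1 row. RNA was sequenced from 6 samples of primary macrophages from WT mice, 3 pretreated with rmMETRNL for 6 h and 3 pretreated with vehicle, and every sample was then challenged for 6 h with the yeast Candida albicans. The labels name the agent rmMETRNL and give neither its dose nor the source of the cells, and nothing states that the replicates were separate animals or cultures. The p-values below therefore weigh a spread that may be technical. Both groups met the fungus, and the comparison is between pretreatments.

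These factors work in layers. PU.1, the product of Spi1, binds enhancers across the genome of myeloid cells and opens them, RUNX1 acts upstream of it in blood stem and progenitor cells, and C/EBPalpha commits progenitors to the myeloid path. In the mature macrophage C/EBPbeta and C/EBPdelta join the response to microbial products, while MAF, MITF and KLF4 act on programmes of quiescence, lysosomes and polarisation.

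The columns carry short names, and those that share the r of rmMETRNL were read as the rmMETRNL libraries and the others as vehicle; every direction below rests on that reading. Values are in FPKM, fragments per kilobase of gene scaled to library size, which allows levels to be set side by side between genes. The reads behind the values could be recovered and sum to between 13235001 and 18145733 per library. The cells carried macrophage transcripts, with Lyz2 at 5567 ± 139 FPKM in rmMETRNL libraries and 5460 ± 382 FPKM in vehicle libraries (mean ± SD, n = 3 each, as for all values below), and Cd68 at 1359 ± 28.4 FPKM with rmMETRNL and 1446 ± 48.7 FPKM with vehicle. Tyrobp, an adaptor of myeloid receptors, stood at 553 ± 39.5 FPKM with rmMETRNL and 623 ± 46.0 FPKM with vehicle. Not every macrophage marker looked at was high. Mertk had 2.18 ± 0.462 FPKM with rmMETRNL and 2.74 ± 0.00384 FPKM with vehicle. Fcgr1 had 1.35 ± 0.556 FPKM with rmMETRNL and 1.21 ± 0.268 FPKM with vehicle. Aif1, on 16 to 41 reads per library, had 1.41 ± 0.426 FPKM with rmMETRNL and 0.708 ± 0.0886 FPKM with vehicle. The labels' extraction text speaks of retinas, and 5 of 12 retina markers, among them the photoreceptor factor gene Crx, had no read in any library. The highest of the 12 were Pde6b, at 0.522 ± 0.170 FPKM with rmMETRNL and 0.351 ± 0.0687 FPKM with vehicle, and Sag, at 0.158 ± 0.0196 FPKM with rmMETRNL and 0.101 ± 0.0365 FPKM with vehicle.

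The members spanned a wide range of levels. Cebpb stood first, at a mean of 1074 FPKM over the 6 libraries, and was the most abundant of the 1469 genes that the table assigns to a transcription factor family, and the 37th of all genes. Spi1 followed at 74.0 FPKM, Klf4 at 16.4, Cebpa at 13.3, Runx1 at 11.8, Mitf at 11.7, Elf1 at 8.27, Cebpd at 3.09 and Maf at 0.944 FPKM. Cebpb stood at 14.5 times the level of Spi1, and Spi1 at 4.51 times that of Klf4. Only among Cebpa, Runx1 and Mitf did the ranges over libraries overlap between neighbours in this order, so these 3 could not be ranked; Cebpa lay above Runx1 in 5 of 6 libraries and Runx1 above Mitf in 2 of 6.

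**Figure D1:**
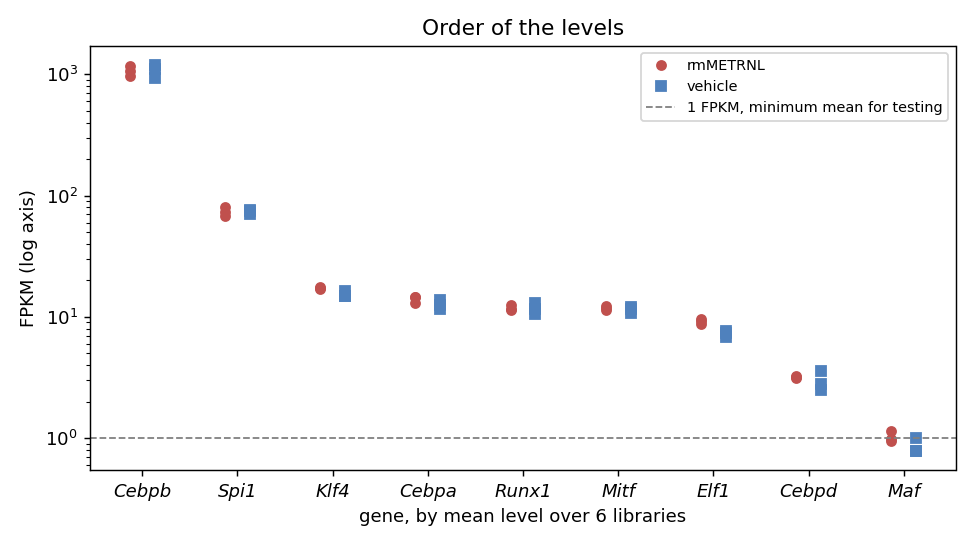
FPKM on a log axis for each of the 9 members, ordered by mean level, with 1 point per library (circles rmMETRNL, squares vehicle) and a dashed line at the mean of 1 FPKM needed for testing. Cebpb lies at 939.8 FPKM or above in every library, Maf lies about the line, and the points of both groups nearly coincide at most genes.

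Read depth differed widely between the members. Cebpb rested on 18894 to 30108 reads per library, Spi1 on 2666 to 3482, Elf1 on 618 to 1023, Cebpd on 126 to 203 and Maf on 87 to 152. Read counting alone gives a coefficient of variation of 0.728% at the lowest Cebpb count and of 10.7% at the lowest Maf count, while the libraries of a group varied by 9.29% (rmMETRNL) and 11.7% (vehicle) in Cebpb and by 11.1% (rmMETRNL) and 15.1% (vehicle) in Maf. The spread between libraries was thus far above counting error in Cebpb, and close to it in Maf. Maf lay under the mean of 1 FPKM required for testing, so 8 of the 9 members were tested among 9867 genes.

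The comparison asked whether macrophages that had seen rmMETRNL before the fungus carried these factors at other levels. Elf1 and Klf4 were the 2 members whose rmMETRNL libraries lay wholly above the vehicle libraries, with group means 27.4% and 13.1% higher. Cebpb, Spi1, Runx1 and Mitf differed by at most 2.79% between group means, and Cebpa and Cebpd by 10.9% and 7.92%, within overlapping ranges. None of the 8 tested members passed limma at an adjusted p of 0.05, where 0 of 9867 genes passed (0%, with 0.103 as the smallest adjusted p). Before adjustment p lay under 0.05 for Elf1 and Klf4, both higher with rmMETRNL, as it did for 14.7% of tested genes (1448), 7.54% higher and 7.13% lower. The log2 fold change was positive for 7 of 8 members, with a median of 0.0645, and for 48.4% of all tested genes (4771 of 9867). Under other scalings it was positive for 6 to 8 members, since the values of Spi1, Cebpb and Runx1 lay near 0. The count of positive values over all tested genes also moved with the scaling, from 4542 in voom to 5295 as TPM. Higher without overlap were 2 of 8 members (Elf1 and Klf4), where 10.9% of all tested genes lay so, and lower without overlap were 0 of 8, where 10.6% lay so. Tested genes with a transcription factor family leaned upward as a class. Of these 516 genes 290 had a positive log2 fold change, with a median of 0.0164, and 14.3% were higher and 6.98% lower without overlap. Without vehicle library 1 the count was 4 of 8, with Cebpa and Cebpd added, and without rmMETRNL library 3 it was 3. Groups separate more easily when a library is left out, and the shares over all tested genes in these settings are not given here. These counts therefore cannot be set beside the 10.9% and 10.6%, which hold for all libraries. A second tool, limma voom on the recovered reads, called 61 genes (0.618%, and 0.405% higher with rmMETRNL), of which 1 was a member, Elf1. In these bulk samples fewer cells of a type and less RNA per cell cannot be told apart.

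**Figure D2:**
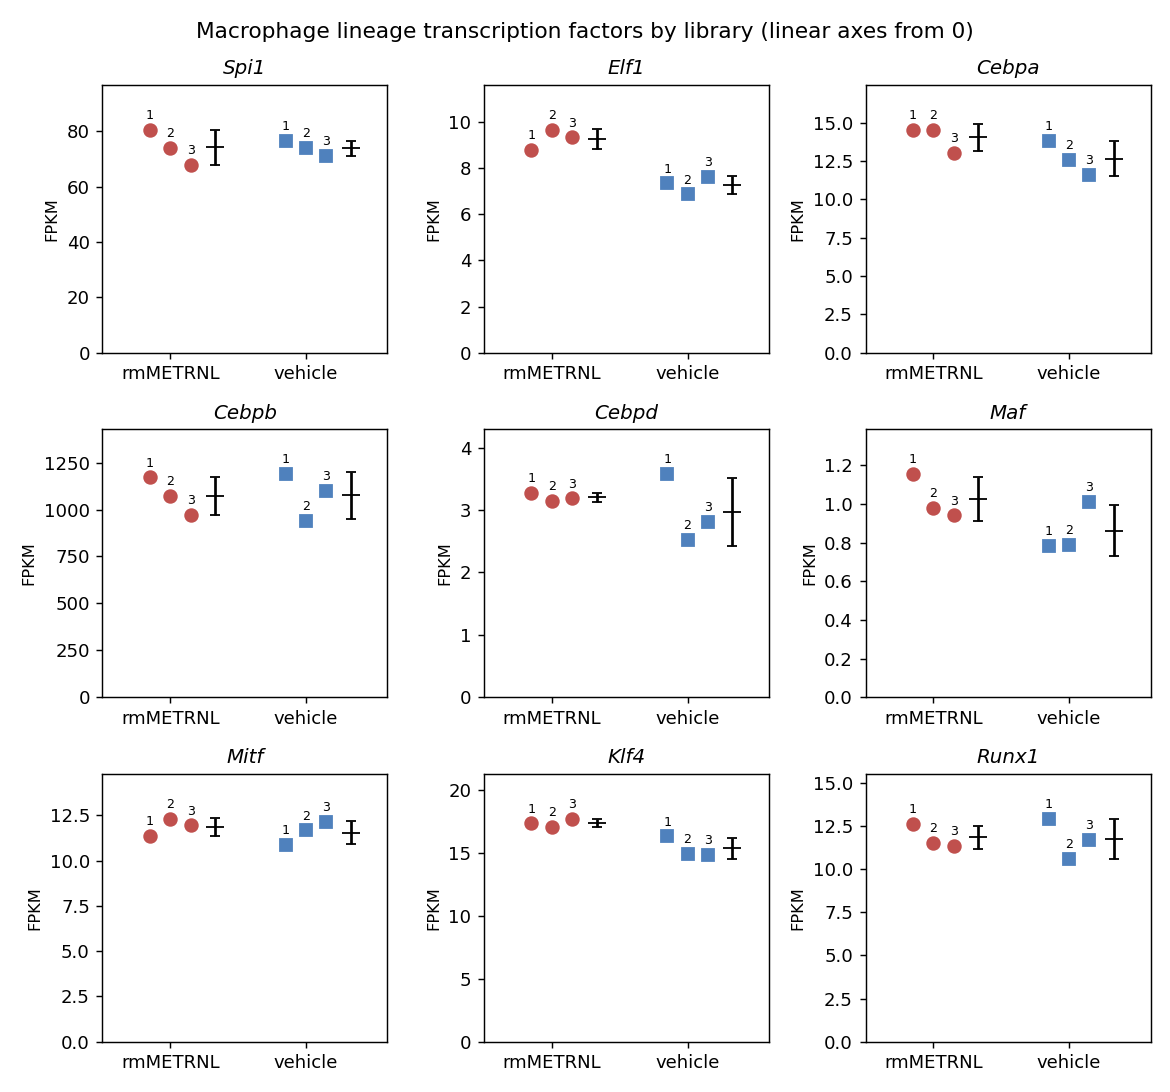
FPKM of each member in each library on linear axes that start at 0, rmMETRNL (red circles) left of vehicle (blue squares), with the replicate number above each point and the mean and SD (n = 3) as a black mark beside each group. The groups separate in Elf1 and Klf4 and overlap in the other 7 genes.

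Sequence before the start sites of 3 members is shown for these results, Elf1 and Klf4 as the members whose groups did not overlap and Cebpb as the most abundant one. Each run is the 250 bases before a RefSeq start (GRCm38.p6), printed 5′ to 3′ on the strand of the gene, and capitals mark the matched words named below. The Elf1 start used lies inside the gene. The window before its other RefSeq start lies directly before the 5′ end of the gene as positioned in the annotation. It overlaps an exon of Wbp4 on the opposite strand and is not shown.
Elf1, chr14:79515424-79515673, plus strand: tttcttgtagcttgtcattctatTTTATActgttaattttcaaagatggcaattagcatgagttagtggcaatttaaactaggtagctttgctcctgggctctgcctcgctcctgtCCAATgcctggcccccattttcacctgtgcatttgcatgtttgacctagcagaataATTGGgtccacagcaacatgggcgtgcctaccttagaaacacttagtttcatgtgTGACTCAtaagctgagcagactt
Klf4, chr4:55532476-55532725, minus strand: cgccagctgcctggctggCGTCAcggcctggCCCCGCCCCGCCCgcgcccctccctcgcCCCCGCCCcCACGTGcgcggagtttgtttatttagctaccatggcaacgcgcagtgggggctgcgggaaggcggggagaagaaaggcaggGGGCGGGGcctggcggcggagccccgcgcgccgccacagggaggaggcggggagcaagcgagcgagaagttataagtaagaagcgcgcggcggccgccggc
Cebpb, chr2:167688665-167688914, plus strand: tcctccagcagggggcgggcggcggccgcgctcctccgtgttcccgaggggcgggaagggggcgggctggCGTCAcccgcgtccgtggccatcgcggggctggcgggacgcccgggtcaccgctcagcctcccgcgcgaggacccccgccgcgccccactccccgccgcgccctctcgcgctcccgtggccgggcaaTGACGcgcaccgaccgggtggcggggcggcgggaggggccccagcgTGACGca

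The Cebpb window held 3 matches to TGACG, the core of the cyclic AMP response element, a word found on either strand in 17.8% of the 32841 promoter windows of the same length. Klf4 held 1 TGACG, 1 E-box CACGTG, the word read by MITF and its relatives (6.02% of windows), and 4 matches to the GC box CCCCGCCC, a word read by KLF and SP factors (16.1%), of which a pair overlap. The Elf1 window held 1 AP-1 word TGANTCA (6.75%), 1 TATAAA (12.4%) and 2 CCAAT words (33.9%), and no GC box. The base composition of the windows differed, with 81.6% G and C in Cebpb, 74.0% in Klf4 and 43.2% in the Elf1 window shown. The median over all windows was 52.4%. The Elf1 window not shown had 71.6% G and C and held 1 TATAAA, without an AP-1 or CCAAT word. Words searched on both strands without a match in these 3 windows were the ETS words CCGGAAGT (2.88% of all windows) and GAGGAAGT (2.44%), the C/EBP word TTGCNNAA (9.57%), the RUNX word TGTGGT (14.0%), the CACC box CCCCACCC (9.06%), the NF-kappaB word (0.98%) and the core of the MAF element, TGCTGA (16.1%). A match is a description of the letters, and the libraries do not show which start was used.

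Among the ETS factors, Elf1 (ENSMUSG00000036461, chromosome 14, 79481194 to 79582494, GRCm38) encodes a relative of PU.1 that is active in blood cells and lymphocytes. Elf1 had 8.79, 9.68 and 9.34 FPKM in the 3 rmMETRNL libraries, against 7.34, 6.86 and 7.62 FPKM in the 3 vehicle libraries. Every rmMETRNL library was above every vehicle library, and the gap between the groups was wider than the range within either. The group means were 9.27 ± 0.444 FPKM with rmMETRNL and 7.27 ± 0.383 FPKM with vehicle, a log2 fold change of 0.31 (SE 0.06, 95% interval 0.17 to 0.46) on the log2(FPKM + 1) scale. By p-value Elf1 ranked 79th of 9867 genes, with an adjusted p of 0.189 in limma, and voom gave a log2 fold change of 0.34 (SE 0.07) with an adjusted p of 0.0493. Over the alternatives run on this gene the adjusted p lay between 0.0493 and 0.392, and voom was the only one that passed. In all, 4.85% of its exon bases are shared with other genes, mainly with Wbp4 on the opposite strand. Wbp4 had 6.22 ± 0.312 FPKM with rmMETRNL and 5.91 ± 0.234 FPKM with vehicle. Of the 31-base stretches of the longest Elf1 transcript, 7.11% recur in transcripts of other annotated genes. The deviation of a gene from its mean was most related to gene length in rmMETRNL library 3 (correlation 0.203 over all tested genes, others -0.140 to 0.0534). Elf1 spans 6737 bases of exon, and its log2 fold change was 0.31 without that library and 0.30 with the length trend of each library removed.

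Spi1 (ENSMUSG00000002111, chromosome 2, 91082390 to 91115756), the gene of PU.1, had 80.6, 74.0 and 68.0 FPKM in the rmMETRNL libraries, against 76.4, 74.0 and 71.0 FPKM in the vehicle libraries. The rmMETRNL libraries held both its highest and its lowest value, and the vehicle values lay between them. Means were 74.2 ± 6.32 FPKM with rmMETRNL and 73.8 ± 2.72 FPKM with vehicle, a log2 fold change of 0.0050 (95% interval -0.16 to 0.17, SE 0.07, limma adjusted p = 0.983), whose sign turned with quantile scaling and in voom. Within each library the Elf1 level was 0.109, 0.131 and 0.137 of the Spi1 level with rmMETRNL, against 0.0961, 0.0927 and 0.107 with vehicle. No scaling factor per library can change these shares, but they rest on the same Elf1 values and are no separate support. They did not overlap, with a narrow gap between rmMETRNL library 1 and vehicle library 3. How many other genes separate in this way against Spi1 was not counted.

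Klf4 (ENSMUSG00000003032, chromosome 4, 55527143 to 55532466), a zinc finger factor linked to monocyte differentiation and to alternative activation, had 17.4, 17.1 and 17.8 FPKM in the rmMETRNL libraries, against 16.3, 14.9 and 14.9 FPKM in the vehicle libraries. The groups did not overlap, and vehicle library 1 came within 1 FPKM of the lowest rmMETRNL library. Means were 17.4 ± 0.333 FPKM with rmMETRNL and 15.4 ± 0.822 FPKM with vehicle, a log2 fold change of 0.17 (SE 0.05, 95% interval 0.04 to 0.30). The adjusted p was 0.273 in limma and 0.262 in voom. Within each library Klf4 stood at 0.215, 0.231 and 0.261 of Spi1 with rmMETRNL, against 0.214, 0.202 and 0.210 with vehicle, so that rmMETRNL library 1 and vehicle library 1 nearly met.

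The C/EBP factors are basic leucine zipper proteins that bind DNA as pairs and can pair with each other. Cebpb (ENSMUSG00000056501, chromosome 2, 167688915 to 167690418) had 1172, 1072 and 972 FPKM in the rmMETRNL libraries, against 1189, 939.8 and 1099 FPKM in the vehicle libraries. The groups overlapped almost wholly, with both extremes in vehicle libraries. Means were 1072 ± 99.5 FPKM with rmMETRNL and 1076 ± 126 FPKM with vehicle, and the log2 fold change was -0.0031 (95% interval -0.25 to 0.24, SE 0.10, limma adjusted p = 0.992), a sign that turned when levels were given as TPM. Cebpb shares 20.7% of its exon bases with Tmem189 on the opposite strand. Tmem189, at 120 ± 1.23 FPKM with rmMETRNL and 108 ± 2.26 FPKM with vehicle, was far lower than Cebpb, and whether counting used the strand is not given in the sources used here.

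Cebpa (ENSMUSG00000034957, chromosome 7, 35119293 to 35121928), the factor of myeloid commitment, had 14.5, 14.6 and 13.02 FPKM in the rmMETRNL libraries, against 13.8, 12.6 and 11.6 FPKM in the vehicle libraries. Its groups overlapped, since vehicle library 1 lay above rmMETRNL library 3. Means were 14.0 ± 0.883 FPKM with rmMETRNL and 12.7 ± 1.12 FPKM with vehicle, a log2 fold change of 0.14 (95% interval -0.05 to 0.33, SE 0.08, limma adjusted p = 0.455). Without vehicle library 3 it was 0.083.

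Cebpd (ENSMUSG00000071637, chromosome 16, 15887286 to 15891031), known as an amplifier of inflammatory transcription, had 3.28, 3.15 and 3.19 FPKM in the rmMETRNL libraries, against 3.58, 2.52 and 2.81 FPKM in the vehicle libraries. The rmMETRNL values lay close together inside the wider vehicle range, with a coefficient of variation of 2.14% with rmMETRNL and 18.4% with vehicle; at the lowest read count, counting alone gives 8.91%. Its log2 fold change was 0.09 (95% interval -0.16 to 0.34, SE 0.10, limma adjusted p = 0.731), and 15% of its exon bases are shared, mainly with Spidr on the opposite strand, at 4.71 ± 0.409 FPKM with rmMETRNL and 4.45 ± 0.120 FPKM with vehicle. The Cebpd log2 fold change was 0.20 without vehicle library 1 (limma adjusted p = 0.400) and 0.0088 without vehicle library 2. Of the summed FPKM of the 3 C/EBP members, Cebpb made up 98.4 ± 0.0773% with rmMETRNL and 98.6 ± 0.144% with vehicle. The Cebpb to Cebpa ratio was 80.5, 73.6 and 74.7 with rmMETRNL and 86.0, 74.8 and 94.9 with vehicle, which overlapped.

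Runx1 (ENSMUSG00000022952, chromosome 16, 92601466 to 92826149), a factor needed for definitive blood formation that also acts on the Spi1 enhancer, had 12.6, 11.5 and 11.3 FPKM in the rmMETRNL libraries, against 12.9, 10.6 and 11.7 FPKM in the vehicle libraries. As with Cebpb, vehicle libraries 1 and 2 held both extremes. The means were 11.8 ± 0.689 FPKM with rmMETRNL and 11.7 ± 1.17 FPKM with vehicle, with a log2 fold change that changed sign in some settings and was 0.013 as fitted (95% interval -0.18 to 0.20, SE 0.08, limma adjusted p = 0.961).

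Mitf (ENSMUSG00000035158, chromosome 6, 97807052 to 98021349), a helix-loop-helix factor of melanocytes, osteoclasts and lysosomal genes, had 11.4, 12.3 and 11.9 FPKM in the rmMETRNL libraries, against 10.9, 11.7 and 12.1 FPKM in the vehicle libraries. The ranges overlapped over most of their length. Mitf means were 11.9 ± 0.490 FPKM with rmMETRNL and 11.6 ± 0.652 FPKM with vehicle, a log2 fold change of 0.04 (95% interval -0.11 to 0.18, SE 0.06, limma adjusted p = 0.818).

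Maf (ENSMUSG00000055435, chromosome 8, 115682942 to 115707794), the gene of c-MAF, which is linked to interleukin-10 production and to resident macrophages, had 1.16, 0.982 and 0.941 FPKM in the rmMETRNL libraries, against 0.785, 0.790 and 1.01 FPKM in the vehicle libraries. Vehicle library 3 lay among the rmMETRNL values and the other two vehicle libraries lay below them. The difference on the log2(FPKM + 1) scale was 0.12, and without the filter on low values it had an SE of 0.11 and an adjusted p of 0.753 in limma. Without rmMETRNL library 1 it was 0.077.

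**Figure D3:**
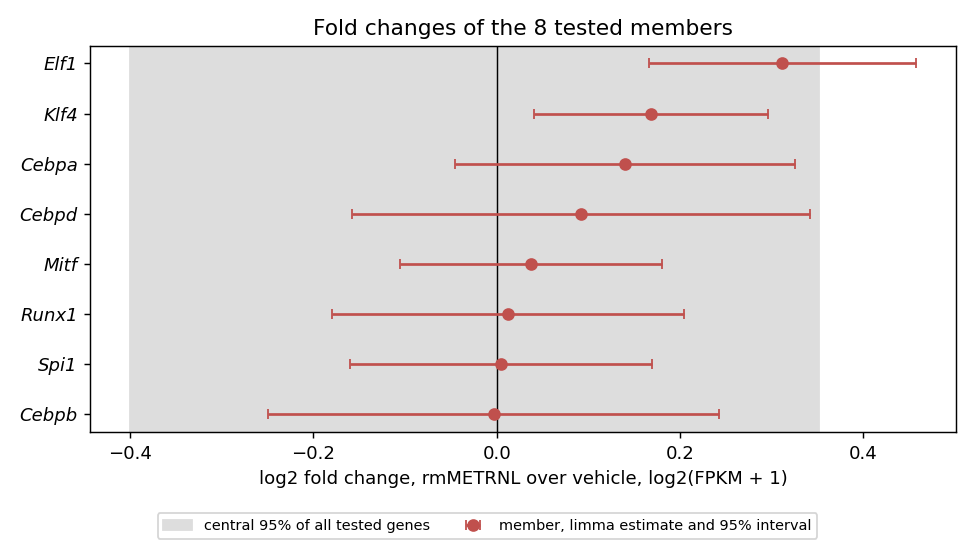
Log2 fold change of each tested member, rmMETRNL over vehicle on the log2(FPKM + 1) scale, with its 95% limma interval and a grey band for the central 95% of all 9867 tested genes (-0.40 to 0.35). The Elf1 and Klf4 intervals lie above 0 before adjustment, and all 8 estimates lie inside the band.

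Relatives and partners of the members were described by list, and no list gene passed limma at an adjusted p of 0.05. Each list's counts stand beside 10.9% of tested genes higher and 10.6% lower without overlap, a median log2 fold change of -0.0056 over all tested genes, and 14.3% higher without overlap among the 516 tested genes with a transcription factor family. Of the relatives and partners of MAF, the small MAF proteins and the cap-n-collar and BACH factors that pair with them, 7 of 8 were tested and all 7 had a positive log2 fold change, with 5 higher without overlap and a median of 0.17. The 7 values stayed positive under each of the 5 other scalings run, with 5 or 6 free of overlap. Bach1, a repressor of haem and oxidative stress genes, had 16.7, 17.8 and 18.9 FPKM in the rmMETRNL libraries, against 14.9, 13.8 and 14.6 FPKM in the vehicle libraries. These did not overlap, and the log2 fold change was 0.28 with SE 0.06 (limma adjusted p = 0.197, voom 0.0560). Maff, a small MAF gene without a transactivation domain, averaged 142 ± 3.78 FPKM with rmMETRNL and 126 ± 2.42 FPKM with vehicle. Mafk averaged 48.5 ± 0.198 FPKM with rmMETRNL and 44.6 ± 0.935 FPKM with vehicle, and Nfe2l1, a factor of proteasome genes, 48.6 ± 2.66 FPKM with rmMETRNL and 41.7 ± 1.64 FPKM with vehicle.

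Among the other ETS factors 12 of 15 were tested, 11 had a positive and 1 a negative log2 fold change, 2 were higher without overlap (3 as TPM and with the length trend removed) and the median was 0.07, with the same split of signs under each other scaling. Elf2, a close relative of Elf1, had 5.82 ± 0.0529 FPKM with rmMETRNL and 5.11 ± 0.209 FPKM with vehicle (log2 fold change 0.16, SE 0.05, limma adjusted p = 0.287). The repressor Etv3 had 13.8 ± 0.304 FPKM with rmMETRNL and 12.6 ± 0.208 FPKM with vehicle, also without overlap, while the ranges of Erf and Ets1 overlapped.

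Of the C/EBP relatives and regulators 4 of 6 were tested, and all 4 had a positive log2 fold change, also under each other scaling. The median was 0.13, and 0 of 4 were free of overlap (1 of 4 as TPM, with median of ratios and with the length trend removed). Trib3, a pseudokinase gene, had 27.6 ± 2.87 FPKM with rmMETRNL and 24.2 ± 1.53 FPKM with vehicle, and Ddit3, the gene of the stress factor CHOP that pairs with C/EBP proteins, 31.7 ± 0.676 FPKM with rmMETRNL and 28.9 ± 3.64 FPKM with vehicle. Cebpg averaged 17.6 ± 0.506 FPKM with rmMETRNL and 16.3 ± 1.59 FPKM with vehicle.

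The relatives of Mitf and their regulators split evenly, 3 of 6 in each direction, with 4 positive as TPM. Fnip1, whose product binds folliculin in nutrient sensing, had 49.5 ± 3.32 FPKM with rmMETRNL and 41.3 ± 1.70 FPKM with vehicle without overlap (log2 fold change 0.25, SE 0.06, adjusted p = 0.230 in limma). Tfeb, the lysosomal regulator, had 2.80 ± 0.295 FPKM with rmMETRNL and 2.29 ± 0.274 FPKM with vehicle, and Tfec, its macrophage relative, 5.33 ± 0.494 FPKM with rmMETRNL and 6.03 ± 0.371 FPKM with vehicle, both with overlap. Of the other KLF genes 9 of 10 were tested, 7 with a positive and 2 with a negative log2 fold change (6 to 8 positive under other scalings). Klf2, linked to quiescence of myeloid cells, had 4.49 ± 0.575 FPKM with rmMETRNL and 3.36 ± 0.145 FPKM with vehicle without overlap (log2 fold change 0.33, SE 0.09, adjusted p = 0.238 in limma), and Klf9 31.8 ± 2.18 FPKM with rmMETRNL and 28.3 ± 0.294 FPKM with vehicle.

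The RUNX relatives and partners gave 4 tested genes of 6, with 2 in each direction, 1 positive with the length trend removed, and overlap in all 4. Cbfb, the shared binding partner of the RUNX proteins, had 21.8 ± 2.25 FPKM with rmMETRNL and 20.8 ± 0.944 FPKM with vehicle, and Runx3 8.51 ± 0.620 FPKM with rmMETRNL and 9.22 ± 0.354 FPKM with vehicle.

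Other myeloid regulators gave 13 tested genes of 18, of which 4 were higher and 1 was lower without overlap (0 lower as TPM). Id2, an inhibitor of helix-loop-helix factors, averaged 301 ± 14.5 FPKM with rmMETRNL and 251 ± 11.7 FPKM with vehicle (log2 fold change 0.26, SE 0.05, adjusted p = 0.189 in limma and 0.0493 in voom). Its relative Id3 had 11.8 ± 1.18 FPKM with rmMETRNL and 9.26 ± 1.13 FPKM with vehicle, and Zeb2, a factor of myeloid identity, 23.8 ± 2.03 FPKM with rmMETRNL and 20.4 ± 0.857 FPKM with vehicle. Factors of other lineages were near absent. Of 14 such genes 5, among them the eye factor gene Pax6, had no read in any library, and Tcf7 was the only one tested, at 1.93 ± 0.375 FPKM with rmMETRNL and 1.75 ± 0.272 FPKM with vehicle.

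Genes linked to each member gave values in both directions, and the counts of signs changed with scaling where values lay near 0. Of the 19 tested genes linked to PU.1, 8 had a positive and 11 a negative log2 fold change, 2 were higher and 3 lower without overlap, and the median was -0.026; under other scalings 1 or 2 were higher and 0 to 3 lower without overlap. Adgre1, the gene of F4/80, had 130 ± 3.30 FPKM with rmMETRNL and 117 ± 5.65 FPKM with vehicle, and Ncf1, a subunit of the phagocyte oxidase, 35.2 ± 1.34 FPKM with rmMETRNL and 38.0 ± 0.436 FPKM with vehicle, neither with overlap. Csf2ra, a receptor chain for the growth factor GM-CSF, had 189 ± 16.9 FPKM with rmMETRNL and 221 ± 12.1 FPKM with vehicle, with overlap.

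The 13 tested inflammatory genes linked to C/EBP factors gave 6 positive and 7 negative values (6 to 8 positive under other scalings), with 2 higher and 3 lower without overlap (1 and 2 with quantile scaling). Cd14, the co-receptor for bacterial lipopolysaccharide, had 2298 ± 53.4 FPKM with rmMETRNL and 2647 ± 62.0 FPKM with vehicle (log2 fold change -0.20, SE 0.04, adjusted p = 0.189 in limma and 0.0468 in voom). Arg1, the arginine-degrading enzyme of alternatively activated macrophages, also on the KLF4 list, had 514 ± 16.1 FPKM with rmMETRNL and 429 ± 27.0 FPKM with vehicle (log2 fold change 0.26, SE 0.06, adjusted p = 0.197 in limma and 0.0493 in voom). Ptgs2, the inducible cyclooxygenase, had 2146 ± 227 FPKM with rmMETRNL and 1804 ± 82.7 FPKM with vehicle, and the acute phase gene Orm1 18.6 ± 0.758 FPKM with rmMETRNL and 22.2 ± 1.49 FPKM with vehicle, with 27.5% of its 31-base stretches shared with other genes.

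Among 9 tested genes linked to MAF, 3 were higher and 1 was lower without overlap. Il10, an anti-inflammatory cytokine gene bound by c-MAF, had 23.8, 26.0 and 27.4 FPKM in the rmMETRNL libraries, against 21.4, 19.4 and 19.7 FPKM in the vehicle libraries. The groups did not overlap, and the log2 fold change was 0.34 with SE 0.07 (limma adjusted p = 0.189, voom 0.0888). F13a1, the coagulation factor XIII A chain of resident macrophages, averaged 32.1 ± 1.58 FPKM with rmMETRNL and 25.8 ± 1.19 FPKM with vehicle (log2 fold change 0.31, SE 0.06, adjusted p = 0.185 in limma and 0.0349 in voom). Mrc1, the mannose receptor, had 16.5 ± 1.31 FPKM with rmMETRNL and 14.0 ± 0.929 FPKM with vehicle, and Lyve1, a hyaluronan receptor, 7.34 ± 0.168 FPKM with rmMETRNL and 8.04 ± 0.436 FPKM with vehicle.

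Genes linked to MITF and its relatives gave 5 positive and 4 negative values in 9 tested genes (4 or 5 positive under other scalings), with 1 higher and 1 lower without overlap. Acp5, the tartrate-resistant phosphatase of osteoclasts, had 163 ± 8.75 FPKM with rmMETRNL and 150 ± 4.96 FPKM with vehicle, and Mcoln1, a lysosomal calcium channel, 13.1 ± 0.843 FPKM with rmMETRNL and 14.6 ± 0.326 FPKM with vehicle. The 7 genes linked to KLF4 gave 2 positive values, Arg1 and Mrc1, both without overlap, and 5 negative values that all overlapped, of which some turned positive under other scalings (2 to 5 positive in all). Of 4 tested genes linked to RUNX1, Csf2, the gene of GM-CSF, had 38.6, 41.3 and 36.7 FPKM in the rmMETRNL libraries, against 28.9, 21.5 and 30.96 FPKM in the vehicle libraries. Its groups did not overlap, and the log2 fold change was 0.52 with SE 0.13 (limma adjusted p = 0.233, voom 0.0579). Of its exon bases, 12% lie in another gene model. The list, which also holds Spi1, gave 3 positive values and 1 negative value (2 positive with quantile scaling and in voom), with Csf2 and Csf1r higher without overlap (1 gene with quantile scaling).

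**Figure D4:**
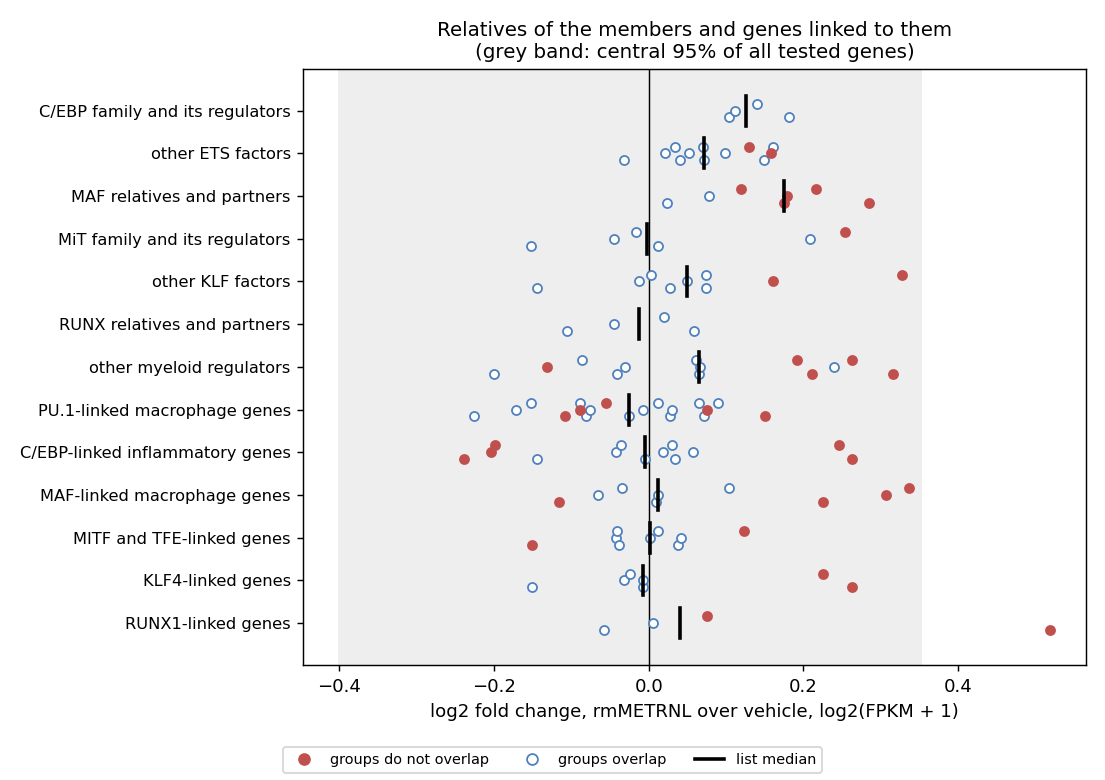
Log2 fold change (rmMETRNL over vehicle, log2(FPKM + 1) scale) of each tested gene of the lists, 1 row per list, with the median as a vertical mark and the central 95% of all tested genes in grey. All 7 tested MAF relatives and partners lie above 0, and the lists of linked genes lie on both sides of it.

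Markers of other cells were mostly low, and some differed between the groups without passing limma. S100a9, a neutrophil and monocyte gene, had 34.8 ± 3.56 FPKM with rmMETRNL and 24.4 ± 0.781 FPKM with vehicle, and the platelet factor gene Pf4, which macrophages also carry, 77.4 ± 3.89 FPKM with rmMETRNL and 60.8 ± 7.26 FPKM with vehicle, both without overlap. S100a8 stood at 86.1 ± 0.564 FPKM with rmMETRNL and 83.7 ± 4.59 FPKM with vehicle, and Retnlg, another neutrophil gene, at 6.49 ± 0.654 FPKM with rmMETRNL and 6.58 ± 1.31 FPKM with vehicle. The other 7 neutrophil and precursor markers reached at most 0.673 FPKM in any library; among these granule genes Elane had no read, while Prtn3 had 2 to 13 reads and Ltf 2 to 20 reads per library. The 10 neutrophil and precursor markers summed to 123 to 132 FPKM with rmMETRNL and 113 to 120 FPKM with vehicle. The 7 erythroid and megakaryocyte markers summed to 75.3 to 82.3 FPKM with rmMETRNL and 54.1 to 68.3 FPKM with vehicle, nearly all of it Pf4. Itga2b had 0.186 ± 0.0552 FPKM with rmMETRNL and 0.216 ± 0.0126 FPKM with vehicle, Klf1 0.142 ± 0.0640 FPKM with rmMETRNL and 0.220 ± 0.193 FPKM with vehicle, and the remaining 4 had at most 3 reads in any library, with Hbb-bs and Hbb-bt at 0. The 10 macrophage markers summed to 9893 to 10227 FPKM with rmMETRNL and 10187 to 10823 FPKM with vehicle, most of it from Lyz2, Cd14 and Cd68. As single genes they went both ways, with 6 positive and 4 negative log2 fold changes. Of these markers 3 were higher and 3 lower without overlap. The part of these marker differences in the Elf1 and Klf4 values was not tested. Summed markers of dendritic cells were 1.76 to 1.88 FPKM with rmMETRNL and 1.42 to 1.67 FPKM with vehicle (Flt3 0.802 ± 0.0554 FPKM with rmMETRNL and 0.663 ± 0.0400 FPKM with vehicle). Those of T and NK cells were 1.73 to 3.65 FPKM with rmMETRNL and 1.49 to 2.66 FPKM with vehicle, and those of B cells 3.80 to 4.12 FPKM with rmMETRNL and 3.20 to 4.38 FPKM with vehicle. Mast cell markers summed to 9.67 to 12.3 FPKM with rmMETRNL and 8.12 to 13.2 FPKM with vehicle, and fibroblast and mesothelium markers to 10.5 to 10.96 FPKM with rmMETRNL and 10.6 to 11.4 FPKM with vehicle. The 12 retina markers summed to 0.623 to 0.867 FPKM with rmMETRNL and 0.446 to 0.609 FPKM with vehicle.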

How the data were processed

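The authors deposited 1 table of FPKM values for 54532 genes in 6 libraries, with gene name, position, length and transcription factor family. GRCm38 and mm10 are named per the submitters' processing notes, and positions are printed as in the table. Neither the aligner nor the counting tool nor its strand setting is given in the sources used here. FPKM values, times each gene's length, stepped in whole reads (100% within a tolerance of 0.05), which gave the total reads per library. At 1 kb, 10 reads correspond to 0.549 to 0.748 FPKM.

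Genes whose mean over the libraries reached 1 FPKM were tested on log2(FPKM + 1) with limma 3.58.1 (trend, R 4.3.3, two-sided, Benjamini-Hochberg over all 9867 genes, threshold 0.05), so that fold changes of low genes are understated. Limma voom on the recovered reads, other scalings (TPM, median of ratios, quantile, length trend removed), pseudocounts, filters and leaving out each library were the alternatives. Scripts were tested on simulated data. Groups were called free of overlap where every library of 1 group exceeded every library of the other. The members and lists were chosen with earlier results of these data known. The text names all members and, per list, up to 4 tested genes with the smallest p, 2 genes of each marker list and 4 macrophage markers with the highest mean. Elane, Pax6, Crx, Hbb-bs and Hbb-bt (at 0), Prtn3, Ltf, Retnlg, Klf1, Aif1, Fcgr1, Mertk and overlap partners of members were named after their values were seen. Promoters came from RefSeq (GRCm38.p6), where 6 of 9 members matched with 10 starts, and overlaps from GENCODE M21. Replicate pairs differed by more than counting noise (chi-square per degree of freedom 4.05 to 7.77).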

Additional observations from a re-analysis of the deposited data

How the results depend on the processing

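Of the fold changes of members and other named genes, 1013 values under the alternatives kept direction and side of the threshold, 5 passed it only in voom (Elf1, Id2, Arg1, Cd14 and F13a1) and 25 changed sign near 0. Genes called numbered 0 as reported, 5 without the filter on low values, 1 with TPM, 1 with array weights and 61 with voom; members called numbered 0, and 1 with voom. The count of members without overlap was 2, with a range of 2 to 4 when 1 library was left out. Leaving out a library makes separation easier for any gene, and the shares over all tested genes in those settings are not given here. Signs turned for Spi1 with quantile scaling (-0.021) and voom (-0.0030), for Cebpb with TPM (0.018), array weights (0.021) and the length trend removed (0.033), and with the length trend removed for Runx1 (-0.015), Cbfa2t2 (-0.000262) and Mgl2 (0.0033). That alternative was chosen after seeing the data. With 1 library left out the log2 fold change ranged from -0.056 to 0.065 for Spi1, -0.097 to 0.072 for Cebpb, 0.0088 to 0.20 for Cebpd, 0.083 to 0.20 for Cebpa, 0.077 to 0.18 for Maf, 0.28 to 0.35 for Elf1, 0.15 to 0.21 for Klf4, -0.0038 to 0.071 for Mitf, -0.053 to 0.079 for Runx1, -0.021 to 0.11 for Cbfb, -0.097 to 0.019 for Runx2, -0.0196 to 0.050 for Cbfa2t2, -0.072 to 0.043 for Mgl2, -0.12 to 0.0040 for Itgal and -0.013 to 0.17 for Tcf7. The cause was not tested. With the replicate number as a block 0 genes and 0 members were called. Same-numbered libraries did not deviate together (correlations -0.021, 0.0074 and -0.045). These deviations also carry trends of single libraries, such as that with gene length, so whether the numbers pair the samples cannot be told from them. Among the members, Maf and Cebpd rest on the fewest reads.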
